A study of Homo sapiens with 4 samples.

Results

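Glycosyltransferases of glycan branch and cap synthesis are the Golgi enzymes that start, branch, extend and finish the sugar chains of glycoproteins and glycolipids. The genes described here are those whose array symbol is B3GNT, B3GALT, B4GALT, B4GALNT, ST3GAL, ST6GAL, ST6GALNAC, ST8SIA, FUT, GCNT, MGAT or GALNT with a number, together with GMDS, CHPF, CHPF2 and MAN1A1. The rule found 207 probe sets of 87 genes among 41097 probe sets of 19775 genes with 1 symbol. The measurements are of total RNA from 2 human cell lines, MyLa, labelled as a mycosis fungoides line, and HH, labelled as a cutaneous T cell lymphoma line. The groups were MyLa with IL-32γ (5 ng/ml of this isoform of the cytokine interleukin-32), MyLa control without it, HH with IL-32γ and HH control without it, all grown in 0.1% serum for 40 hours. Each group was 1 array, so a difference within a line has no replicate check and stands here untested. Each line is a single established tumour line, so a difference between MyLa and HH is one between 2 lines. A lower value in such bulk RNA can mean fewer cells with the transcript or less of it per cell, and these cannot be told apart.

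Mucin-type O-glycans start when a GALNT enzyme puts GalNAc on serine or threonine, and GCNT enzymes then add the branch called core 2. N-glycans are trimmed by mannosidases such as MAN1A1, after which MGAT enzymes set the number of antennae, and B4GALT and B3GNT enzymes lengthen the arms. Sialyltransferases and fucosyltransferases cap the ends. On T cells that enter skin, FUT7, GCNT1 and α2,3-sialyltransferases make sialyl Lewis x, the cap that E-selectin of skin vessels binds and that is known as the cutaneous lymphocyte antigen on its main carrier, PSGL-1.

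Values are log2 expression after GCRMA, and a value of 5 or more was taken as measured, because most lower values lie in a dense block below 3. Between 42.9% and 43.3% of the 54675 probe sets reached 5 on each array. Of the 12 T cell marker genes looked up, 6 were measured on both MyLa arrays and 9 on both HH arrays. CD3E, CD4 and CD5 were below 5 in MyLa, and CD7, CD28 and LCK were below 5 on all 4 arrays. No B cell marker (0 of 4) or monocyte marker (0 of 3) was measured on any array. Of 4 epithelial markers CDH1 was at 12.98 and 12.97 in MyLa (IL-32γ, control) and below 5 in HH, and KRT5, KRT14 and EPCAM were below 5 on every array. Of 4 fibroblast markers COL1A1 was at 10.82 and 11.30 in MyLa, against 5.66 and 4.78 in HH, and COL1A2, PDGFRB and DCN were below 5 on every array. The control probe set near the 5' end of ACTB was higher with IL-32γ by 1.69 in MyLa and by 0.89 in HH. Near its 3' end the differences were -0.08 and -0.03. For GAPDH they were 0.68 and 0.15 at the 5' end, and 0.04 and 0.03 at the 3' end. On the control arrays the 5' probe set of ACTB was at 10.12 in MyLa and 12.69 in HH, and the 3' one at 15.14 and 15.27. The part of these 5' and rRNA differences in the comparisons below, with IL-32γ and between the lines, was not tested.

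Of the 87 genes, 47 (54.0%) reached 5 on at least 1 array, against 56.9% of all genes, and 33 (37.9%) did so on all 4, against 47.2%. The other 40 genes were below 5 on every array in all of their probe sets. They included FUT2, FUT5, FUT6, FUT7 and FUT9, ST3GAL4, ST6GAL1 and ST6GAL2, MGAT3, which adds the bisecting GlcNAc of N-glycans, GCNT3 and GCNT4, which can also form core 2, and GALNT8, GALNT9 and GALNT13 to GALNT18. By role, 9 of 17 GALNT genes, 2 of 5 GCNT genes, 6 of 10 genes of N-glycan trimming and branching, 16 of 26 of chain extension, 9 of 19 sialyltransferases and 5 of 10 of fucosylation were measured. The probe set brightest on average stands for its gene, and other measured probe sets are given where they bear on the value. Levels of different genes are read by different probes and are not compared.

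**Figure D1:**
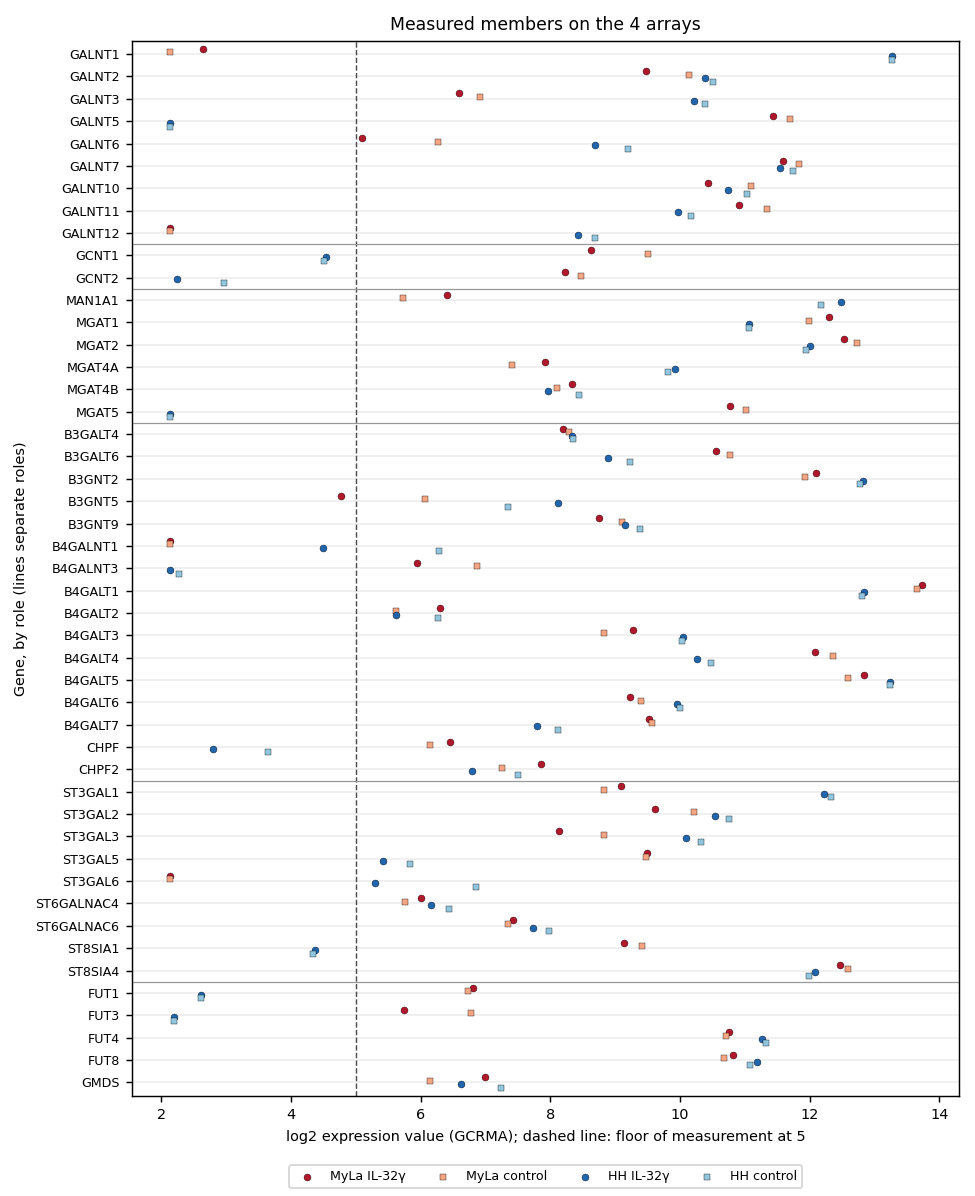
Each row is one of the 47 measured genes and each point its log2 expression value on 1 array (x axis), with circles for IL-32γ, squares for control, reds for MyLa and blues for HH. Lines separate the roles, from O-glycan initiation at the top to fucosylation at the bottom, and the dashed line marks 5. GALNT1 lies at 13.27 on both HH arrays and below 5 in MyLa, while GALNT5 and MGAT5 lie above 10 in MyLa and at 2.13 in HH.

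The 2 lines differed in which enzymes they expressed. A limma fit, in which a line's IL-32γ and control arrays serve as its 2 replicates, tested the 46 genes with 5 or more on at least 2 arrays. At an adjusted p of 0.05 and a 2-fold minimum, 14 were higher in MyLa (30.4% of the 46, against 18.7% of all 11010 genes tested) and 9 were lower in MyLa (19.6%, against 16.8%). Together these 23 genes are 50% of those tested, against 35.5% of all genes, a comparison given without a test. The median size of the difference, ignoring its sign, was 1.08 over the 46 genes and 0.69 over all genes tested. Genes measured on both MyLa arrays and on neither HH array numbered 9 (19.6%, against 7.23% of all genes tested), and the reverse held for 3 (6.52%, against 6.08%). The arrays of a line differ in treatment, so the spread holds the IL-32γ response too, and a line below 5 on both arrays shows no spread at all. Of the 23 calls 12 were made again without the HH IL-32γ array, and 12 without the HH control array, each with 1 residual degree of freedom left. The labels do not say whether the arrays come from separate cultures, so p-values measure the spread between these arrays only.

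Among the GALNT genes, which set where O-glycans begin, 6 of the 9 measured members were at 5 or more on all 4 arrays and 3 were read in 1 line alone. GALNT1, a broadly expressed family member, was at 2.65 and 2.13 in MyLa (IL-32γ, control), against 13.27 and 13.27 in HH. It was thus at least 309-fold lower in MyLa (log2 difference -8.27, SE 0.09, limma adjusted p = 4.8e-05), and its other 3 measured probe sets gave -6.50 to -7.26. GALNT5 ran the other way, at 11.43 and 11.69 in MyLa, against 2.13 and 2.13 in HH, and was at least 94.6-fold higher in MyLa (6.56, SE 0.13, adjusted p = 6.79e-05 in limma). All 5 probe sets of GALNT5 were above 8 in MyLa and below 3 in HH. GALNT12 was below 5 in MyLa and at 8.43 and 8.69 in HH, at least 11.8-fold lower in MyLa (adjusted p = 0.000261 in limma). Its second probe set was below 5 on every array, and as the mean of both GALNT12 differed by -0.80 and was not called. GALNT3 was measured in both lines, at 6.59 and 6.92 in MyLa, against 10.22 and 10.38 in HH, a difference of -3.54 (SE 0.16). GALNT6 was lower in MyLa by -3.26 (SE 0.47) and GALNT11 higher by 1.06 (SE 0.20), and neither was called with no floor. The second probe sets of GALNT3 and GALNT6 were below 5 on every array. GALNT2, GALNT7 and GALNT10, with differences of -0.64, 0.07 and -0.12, did not pass.

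Both measured branching enzymes of the GCNT family were read in MyLa alone. GCNT1, the core 2 enzyme, was at 8.64 and 9.51 in MyLa (IL-32γ, control), against 4.54 and 4.50 in HH, and so at least 16.8-fold higher in MyLa (4.07, SE 0.33, adjusted p = 0.00198 in limma). Its second probe set stood at 8.0 and 7.86 in MyLa and at 2.64 and 2.38 in HH. GCNT2, which makes the I-branch of polylactosamine, was at 8.23 and 8.48 in MyLa and below 3 in HH, at least 10.2-fold higher in MyLa. As the mean of its probe sets GCNT2 was higher by only 0.24, since its other probe set was below 5 on every array.

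Of 6 tested genes of N-glycan trimming and branching, 4 were called between the lines (66.7%, against 35.5% of all genes tested). MAN1A1 is among these 4 and is a member only because the rule names it singly. The mannosidase genes MAN1A2 (0.68), MAN1B1 (-0.67), MAN2A1 (-0.14) and MAN2A2 (0.39), which the rule leaves out, were not called. MGAT5, which adds the β1,6 branch of tri- and tetra-antennary N-glycans, was at 10.77 and 11.02 in MyLa (IL-32γ, control), against 2.13 and 2.13 in HH. That makes MGAT5 at least 59.7-fold higher in MyLa (5.90, SE 0.13, adjusted p = 8.01e-05 in limma), and this rests on 1 probe set, the other being at 2.13 on all 4 arrays. MAN1A1, a mannosidase that trims N-glycans before branching, was at 6.40 and 5.73 in MyLa, against 12.49 and 12.18 in HH (-6.27, SE 0.28, adjusted p = 0.000447 in limma). MGAT4A, which adds a β1,4 branch, was lower in MyLa by -2.20 (SE 0.21), while its relative MGAT4B differed by 0.01 (SE 0.21). MGAT1, which starts hybrid and complex N-glycans, was higher in MyLa by 1.08 (SE 0.15), and MGAT2, which acts next, by 0.66 (SE 0.12), below the 2-fold minimum.

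In chain extension the differences were smaller. The galactosyltransferase B4GALT4 was higher in MyLa by 1.85 (SE 0.16), with 12.08 and 12.36 in MyLa (IL-32γ, control) and 10.26 and 10.48 in HH, and its second probe set gave 1.81. B4GALT7 and B3GALT6, which both build the linker that joins glycosaminoglycans to proteoglycans, were higher in MyLa by 1.58 (SE 0.15) and 1.61 (SE 0.17). Their second measured probe sets gave 1.39 and 0.59. As the mean of its probe sets B3GALT6 was higher by 0.75 and was not called. B4GALNT3, which makes the LacdiNAc terminus, was at 5.94 and 6.87 in MyLa and below 3 in HH, at least 2.65-fold higher in MyLa (adjusted p = 0.035 in limma). CHPF, a chondroitin polymerising factor, was at 6.46 and 6.15 in MyLa and below 5 in HH. B3GNT5, which starts lacto-series glycolipids, was the 1 gene of this role called lower in MyLa, by -2.20 (SE 0.49, adjusted p = 0.0262 in limma). B4GALT1, the main galactosyltransferase of N-glycans, was higher in MyLa by 0.87 and did not reach 2-fold. B3GNT2, the polylactosamine enzyme, differed by -0.78 (SE 0.11), and B4GALT5 and B4GALT6, which make lactosylceramide, by -0.52 and -0.66. The second measured probe sets of B4GALT5 and B4GALT6 gave -1.01 and -0.30.

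Of the sialyltransferases, ST3GAL5 and ST8SIA1 were called higher in MyLa and ST3GAL1 and ST3GAL3 lower. ST3GAL5, which makes the ganglioside GM3, was at 9.49 and 9.48 in MyLa (IL-32γ, control), against 5.42 and 5.84 in HH, 14.5-fold higher in MyLa (3.86, SE 0.18, adjusted p = 0.000462 in limma). ST8SIA1, which turns GM3 into GD3, was at 9.14 and 9.41 in MyLa, against 4.37 and 4.34 in HH, at least 19.3-fold higher in MyLa (4.27, SE 0.13, adjusted p = 0.000178 in limma). B4GALNT1, which makes GM2 and GD2, was at 2.13 on both MyLa arrays, and in HH was at 4.50 with IL-32γ and 6.29 in the control. Measured on 1 array only, B4GALNT1 was not in the test. ST3GAL1, which caps the core 1 O-glycan, was lower in MyLa by -3.31 (SE 0.14, adjusted p = 0.000349 in limma), with 9.09 and 8.83 in MyLa and 12.22 and 12.33 in HH. Its other 2 measured probe sets gave -3.33 and -3.58. ST3GAL2, of the same activity, differed by -0.73 (adjusted p = 0.0758 in limma) in a probe set that can match several transcripts. The other 2 measured probe sets of ST3GAL2 gave -0.75 and -1.24. The polysialyltransferase ST8SIA4 differed by 0.49 (SE 0.11), under 2-fold in its brightest probe set and up to 2.57 in another. Among fucosyltransferases FUT1, which makes the H antigen, was at 6.82 and 6.74 in MyLa and at 2.61 and 2.61 in HH, at least 3.43-fold higher in MyLa.

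**Figure D2:**
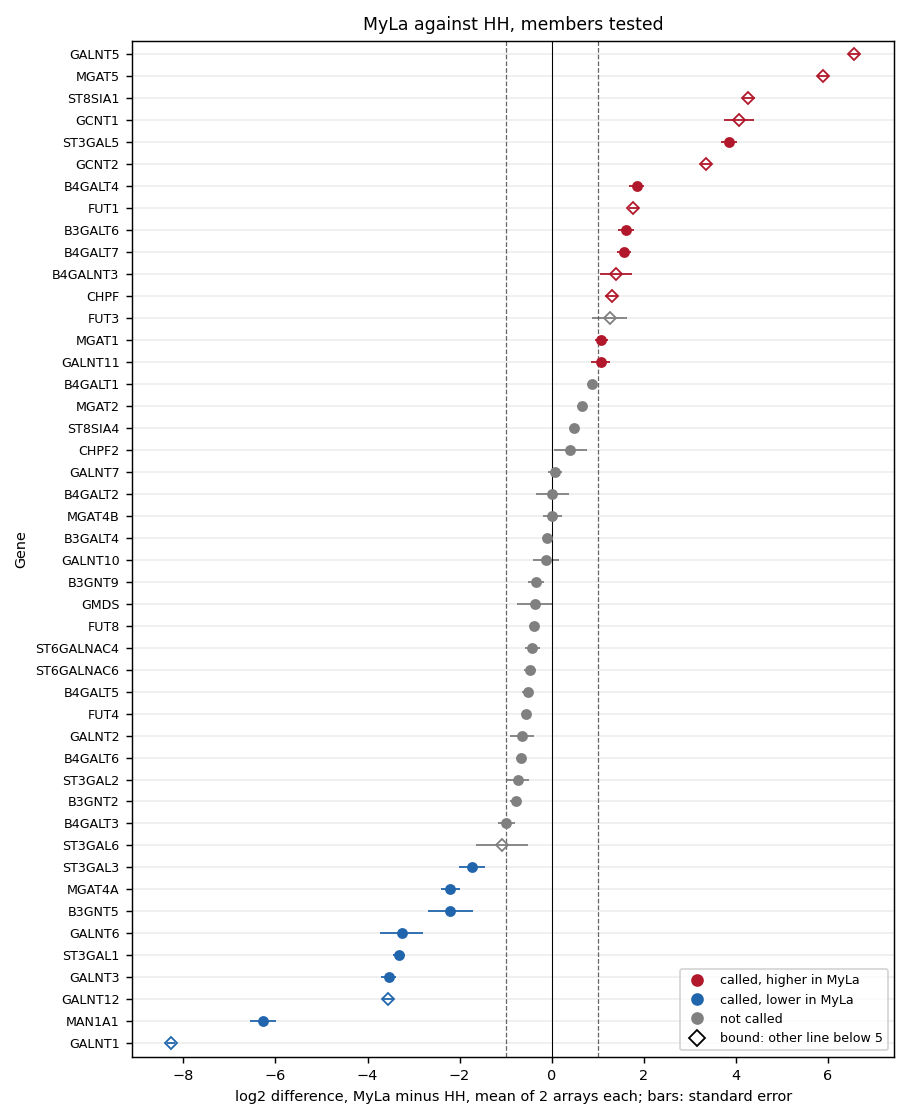
Each row is one of the 46 tested genes, with the mean log2 difference of MyLa minus HH over 2 arrays a line (x axis) and its limma standard error as a bar. Red marks calls higher in MyLa, blue calls lower in MyLa and grey genes not called, and open diamonds are bounds because the other line was below 5. GALNT5 (6.56) and MGAT5 (5.90) lie at the top and MAN1A1 (-6.27) and GALNT1 (-8.27) at the bottom.

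Several measured probe sets existed for 27 of the tested genes, and 24 had them all on the same side between the lines. The exceptions were CHPF2, GALNT7 and MGAT4B, none of them called. Of the 23 calls, GALNT1, GALNT3, GALNT5, MAN1A1, MGAT5, ST3GAL1, ST3GAL5 and ST8SIA1 were made under every alternative that gave a value, with GALNT3 and ST3GAL5 having no value when probe sets that can match several transcripts were left out. With no floor B3GNT5, CHPF, GALNT6, GALNT11, MGAT1 and ST3GAL3 were not called. With a floor of 6 CHPF and FUT1 were tested and not called.

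RefSeq's promoter table for GRCh38.p14 held 66 of the 87 genes. Of the genes read in 1 line only, 3 had a single window there, GALNT12 of HH and ST8SIA1 and FUT3 of MyLa. These are shown because no choice among windows is needed. The FUT3 window lies inside the gene, whose upstream end on the minus strand is chr19:5857122, so a start further upstream is not covered. Each is the 250 bases before a listed transcript start, 5′ to 3′ on the gene's strand, with every CG dinucleotide in capitals. GALNT12 is at chr9:98807420-98807669 on the plus strand, ST8SIA1 at chr12:22334708-22334957 on the minus strand and FUT3 at chr19:5851450-5851699 on the minus strand.
GALNT12: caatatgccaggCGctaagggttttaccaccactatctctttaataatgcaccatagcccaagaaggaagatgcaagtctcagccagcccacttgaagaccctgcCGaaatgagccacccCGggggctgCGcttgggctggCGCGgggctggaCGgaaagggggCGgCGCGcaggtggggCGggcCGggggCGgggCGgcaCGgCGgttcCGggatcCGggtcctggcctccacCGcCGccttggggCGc
ST8SIA1: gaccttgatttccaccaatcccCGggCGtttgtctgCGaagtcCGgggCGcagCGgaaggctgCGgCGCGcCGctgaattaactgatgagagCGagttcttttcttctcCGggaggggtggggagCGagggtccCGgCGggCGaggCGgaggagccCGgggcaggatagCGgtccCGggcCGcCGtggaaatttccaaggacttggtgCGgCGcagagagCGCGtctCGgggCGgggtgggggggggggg
FUT3: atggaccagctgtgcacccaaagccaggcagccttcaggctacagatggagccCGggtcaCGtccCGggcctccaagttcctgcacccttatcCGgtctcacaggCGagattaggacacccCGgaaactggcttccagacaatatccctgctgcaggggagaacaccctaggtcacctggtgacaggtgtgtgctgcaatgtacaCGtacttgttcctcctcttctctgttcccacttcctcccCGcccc
The window of GALNT12 held 21 CG and that of ST8SIA1 28, and 30.2% and 15.9% of 35116 RefSeq windows of this length held at least as many. FUT3 had 8, which 56.3% of windows reached, and the median over windows was 11. The letters GGGCGG, searched on both strands and overlapping CG, were in all 3 windows and in 42.6% of all. These are counts of letters in the reference genome, and neither the sequence nor the methylation of these windows was measured in MyLa or HH.

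In the route to the E-selectin ligand FUT7 was below the floor in both lines, as was ST3GAL6 in MyLa and GCNT1 in HH. FUT7, which adds the fucose of sialyl Lewis x in leukocytes, was below 3 in both of its probe sets on all 4 arrays, with 2.17 and 2.55 in MyLa (IL-32γ, control) as its widest pair. FUT5 and FUT6 were below 3 throughout. FUT4, which can also fucosylate lactosamine chains, was the 1 such enzyme measured in both lines, at 10.75 and 10.72 in MyLa and 11.27 and 11.33 in HH (-0.57, SE 0.09, adjusted p = 0.0124 in limma, under 2-fold). FUT3, the Lewis enzyme, was at 5.75 and 6.77 in MyLa and at 2.20 on both HH arrays, in a probe set that can match several transcripts, and its adjusted p was 0.0575 in limma. The second probe set of FUT3 was at 2.13 on all 4 arrays.

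Of the α2,3-sialyltransferases that act on lactosamine, ST3GAL3 was at 8.14 and 8.83 in MyLa (IL-32γ, control), against 10.10 and 10.32 in HH (-1.73, SE 0.28, adjusted p = 0.0116 in limma). Its second measured probe set gave -1.95. ST3GAL3 was not called with no floor or when probe sets that can match several transcripts were left out. ST3GAL4 stayed below 5 on every array, at 3.28 and 3.77 in MyLa and at 4.37 and 4.76 in HH. ST3GAL6 was at 2.13 and 2.14 in MyLa, against 5.30 and 6.85 in HH. Its other 3 probe sets were below 5 on all 4 arrays, and its difference between lines did not pass (-1.08, SE 0.57, adjusted p = 0.186 in limma). At the floor of 5, GCNT1 was thus read where ST3GAL6 was not, in MyLa, and ST3GAL6 where GCNT1 was not, in HH. With a floor of 4, GCNT1 would count as measured in HH too, at 4.54 and 4.50 (IL-32γ, control). GMDS, the first enzyme of GDP-fucose synthesis from GDP-mannose, was at 7.0 and 6.15 in MyLa and at 6.63 and 7.24 in HH.

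**Figure D3:**
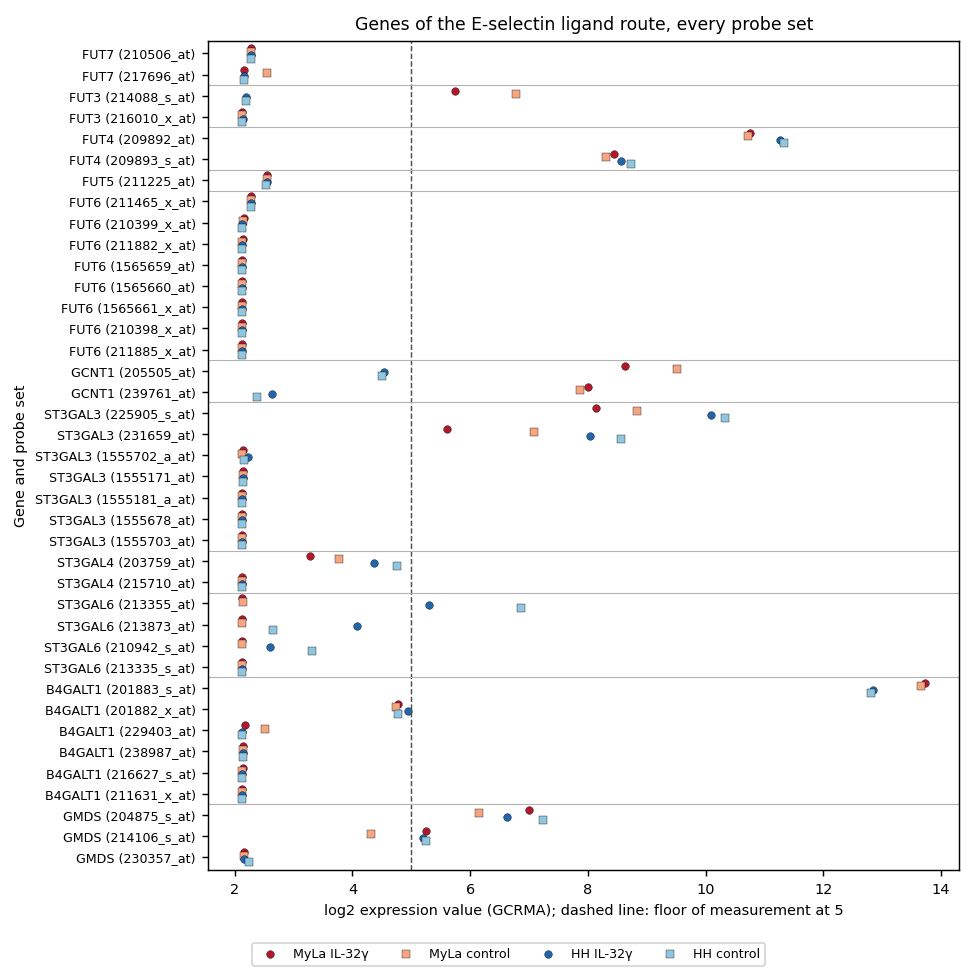
Rows are all probe sets of the 11 genes of the E-selectin ligand route, with the log2 expression value on the 4 arrays on the x axis and the floor of 5 dashed; circles are IL-32γ, squares control, reds MyLa and blues HH. FUT7, FUT5 and FUT6 stay left of 3 on all arrays, GCNT1 passes 5 in MyLa alone and ST3GAL6 in HH alone.

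Of 9 scaffold and selectin genes 6 were measured, all on every array, and CD34 was below 5 throughout. SELPLG, which encodes PSGL-1, was at 11.30 and 11.33 in MyLa (IL-32γ, control) and at 11.49 and 11.51 in HH. CD44 differed between the lines by -0.07 and GLG1 by 0.15, neither passing limma. SPN, encoding CD43, was at 9.62 and 10.26 in MyLa, against 9.66 and 9.39 in HH. SLC35C1, the Golgi importer of GDP-fucose, was 5.71-fold higher in MyLa (2.51, SE 0.27, adjusted p = 0.00393 in limma). C1GALT1, which forms the core 1 O-glycan that GCNT1 branches, was lower in MyLa by -1.96 (SE 0.33, adjusted p = 0.0128 in limma).

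IL-32γ in MyLa went with lower values of several O-glycan and capping genes. Among 43 genes with 5 or more on either MyLa array, 9 were lower by 1.5-fold or more (20.9%, against 7.65% of all genes) and 4 were higher (9.30%, against 7.77%). Without GMDS, CHPF, CHPF2 and MAN1A1, which the rule names singly, 9 of 39 were lower and 1 of 39 higher. The median log2 difference, after values below 5 were set to 5, was -0.13 over the 43 genes and -0.07 over all genes. With each gene as the mean of its probe sets, 2 were lower and 4 higher, a mean that also takes in probe sets below 5 on every array. Without probe sets that can match several transcripts 6 were lower and 4 higher.

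Among GALNT genes GALNT6 was at 5.10 with IL-32γ, against 6.27 in the MyLa control (-1.18), and 5.10 is close to the floor. GALNT2 was at 9.47 with IL-32γ, against 10.15 in the control (-0.67), and its other 3 probe sets were also lower, by -0.34 to -2.00. GALNT10 was at 10.44, against 11.09 in the control (-0.65), with -0.56 and -0.88 in its other 2 probe sets. In both genes every measured probe set was lower with IL-32γ. None of the 7 measured GALNT genes was higher with IL-32γ in its brightest probe set, and their median was -0.43, against -0.07 over all genes. Other probe sets differed in sign for GALNT5 (0.41, 0.15, -0.15 and -0.46), and the second probe set of GALNT7 was higher by 0.18.

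GCNT1 was at 8.64 with IL-32γ, against 9.51 in the MyLa control (-0.88), while its second probe set stood at 0.13. ST3GAL3 was at 8.14, against 8.83 in the control (-0.69), and its second measured probe set gave -1.47. ST3GAL2 was lower by -0.61 in a probe set that can match several transcripts, with 0.25 and -0.56 in its other 2. FUT3 was at 5.75, against 6.77 in the control (-1.03), and FUT4 differed by 0.03. Of the E-selectin route, 3 of 6 measured genes were thus lower by 1.5-fold or more (GCNT1, ST3GAL3 and FUT3), 1 was higher (GMDS) and 2 stayed within it, against 7.65% lower and 7.77% higher of all genes. B3GNT5 was below 5 with IL-32γ, against 6.07 in the control (at least 2.09-fold lower), and B4GALNT3 was lower by -0.93.

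The 4 higher genes were GMDS, at 7.0 with IL-32γ, against 6.15 in the MyLa control (0.85), B4GALT2 (0.68), MAN1A1 (0.67) and CHPF2 (0.60). B4GALT2, a galactosyltransferase, was at 6.30, against 5.62 in the control, and MAN1A1 at 6.40, against 5.73, both close to the floor. The second probe set of CHPF2, a chondroitin synthesis factor, gave 1.10, that of GMDS at least 0.24, its control being below 5, and that of MAN1A1 was below 5 in MyLa. Next came MGAT4A (0.50), B4GALT3 (0.46), MGAT1 (0.32) and CHPF (0.31), which stayed within 1.5-fold. Probe sets other than the brightest passed 1.5-fold higher in genes that did not, with MGAT4B at 1.41, B3GALT6 at 1.47, FUT8 (the core fucosyltransferase) at 0.91 and B4GALT5 at 0.75. Their brightest probe sets stood at 0.22, -0.23, 0.14 and 0.24. Of 22 genes with several measured probe sets in MyLa, 13 had them all of 1 sign, and none had probe sets past 1.5-fold in both directions.

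In HH the differences with IL-32γ were fewer, and the largest were those of ST3GAL6 and B4GALNT1, both near the floor. Of 38 measured genes 5 were lower by 1.5-fold or more (13.2%, against 4.46% of all genes) and 1 was higher (2.63%, against 1.14%). Their median difference was -0.20, against -0.07 over all genes. As means of their probe sets 2 were lower and 1 higher. ST3GAL6 was at 5.30 with IL-32γ, against 6.85 in the HH control (-1.56). B4GALNT1 was below 5 with IL-32γ, against 6.29 in the control, at least 2.44-fold lower. CHPF2 was at 6.79, against 7.51 in the control (-0.72, with -0.45 in its second probe set), B4GALT2 at 5.62, against 6.27 (-0.65), and GMDS at 6.63, against 7.24 (-0.62, with -0.05 in its second probe set). GALNT6 (-0.50), MGAT4B (-0.47) and ST3GAL5 (-0.42) were the next lowest and did not reach 1.5-fold.

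B3GNT5 was the 1 gene past 1.5-fold on the higher side in HH, at 8.13 with IL-32γ, against 7.34 in the control (0.78), and its second probe set gave 0.82. Of 24 genes with several measured probe sets in HH, it was the 1 in which all of them passed 1.5-fold the same way. MAN1A1 differed by 0.31 in HH, with 0.91 in its second probe set. FUT8, MGAT4A, ST8SIA4, MGAT2, B3GNT2 and B4GALT1 followed, between 0.02 and 0.11. Probe sets other than the brightest passed 1.5-fold for ST3GAL1 (0.69), ST8SIA4 (at least 0.61, its control being below 5), B4GALT7 (-0.69) and MGAT4B (-0.72), and the brightest probe sets of these genes did not. FUT4 differed by -0.06 and ST3GAL3 by -0.23, and GCNT1 was below 5 on both HH arrays.

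**Figure D4:**
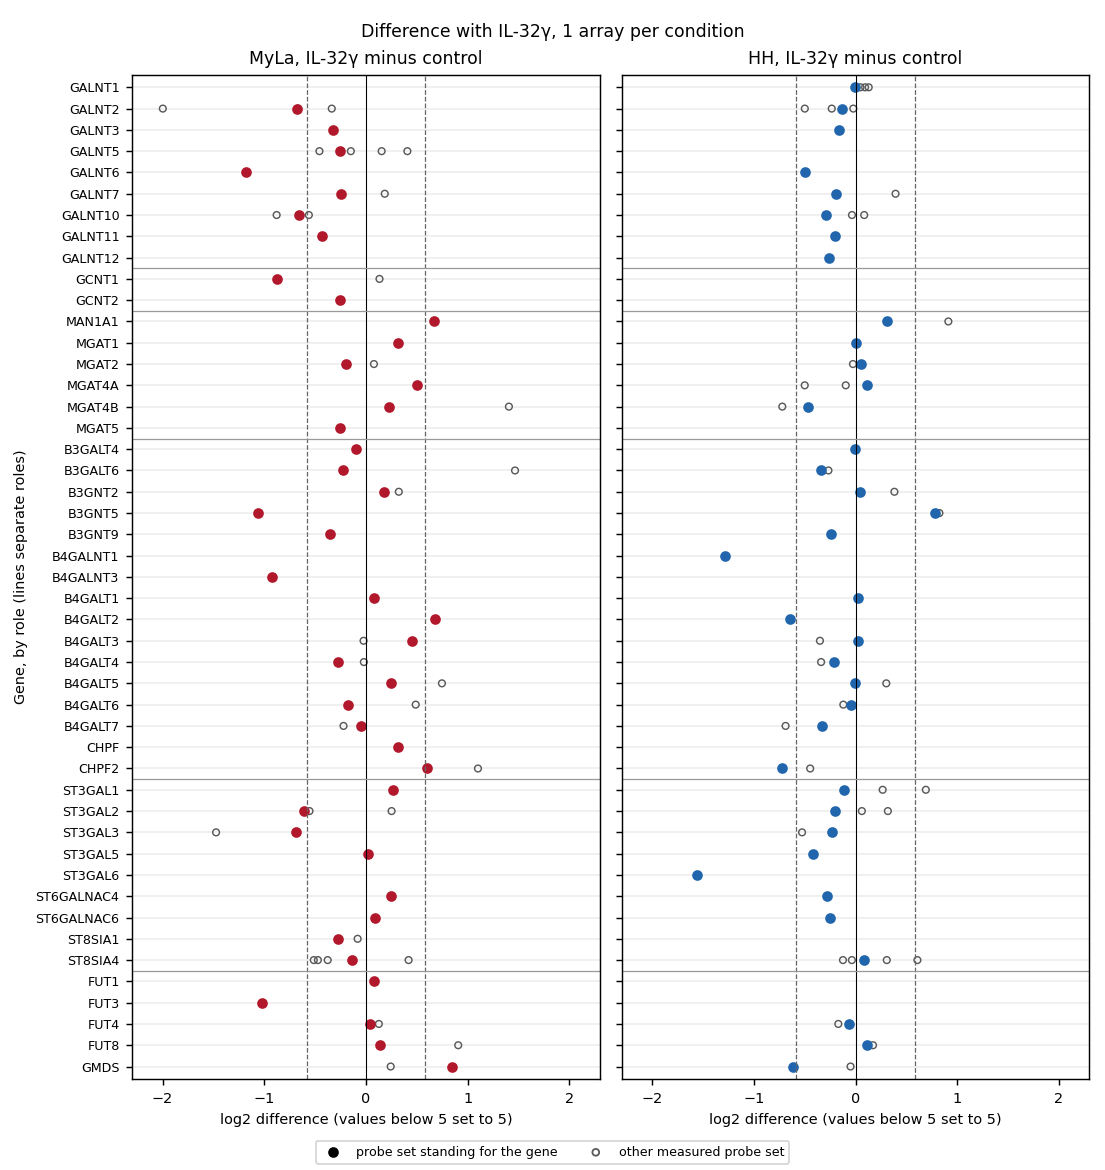
Rows are the 47 measured genes by role, with the log2 difference of IL-32γ minus control on the x axis, MyLa on the left and HH on the right. Filled points are the probe set standing for the gene, open circles its other measured probe sets, dashed lines 1.5-fold, and a row is empty where the gene was below 5 on both arrays of that line. GALNT6 (-1.18) and B3GNT5 (-1.07) lie lowest in MyLa, and ST3GAL6 (-1.56) and B4GALNT1 (-1.29) in HH.

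No gene passed 1.5-fold on the same side in MyLa and HH. Of 34 genes measured in both lines, 0 passed 1.5-fold on the higher side in both (0.356% of all genes did) and 0 on the lower side in both (0.911%). GMDS, CHPF2 and B4GALT2 passed it upwards in MyLa and downwards in HH (3 of 34, against 0.178% of all genes), and B3GNT5 did the reverse (1 of 34, against 0.0210%). Of these 4, B4GALT2 and B3GNT5 are left when the singly named genes are taken out. With the lines as replicates and the line as a block, none of the 46 genes passed an adjusted p of 0.05 in limma, and neither did any of the 11010 genes (0.00%). At an unadjusted p of 0.05 in the same fit, MAN1A1 was higher (mean log2 difference 0.49, SE 0.15) and GALNT6 (-0.84, SE 0.22) and GALNT10 (-0.48, SE 0.15) were lower. Each was on the same side in both lines in its brightest probe set, with an adjusted p of 0.544 in limma. Such unadjusted p-values were reached by 1.54% of all genes on the higher side and 7.60% on the lower side. In HH the other measured probe sets of GALNT10 stood at -0.04 and 0.08.

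Other genes of the pathway were read from 4 lists, whose counts stand against the shares of all genes given above: 7.77% higher and 7.65% lower with IL-32γ in MyLa, 1.14% and 4.46% in HH, and 18.7% higher and 16.8% lower in MyLa than in HH. Each list gene was read from its brightest probe set alone. Some of these can match several transcripts, and the alternatives tried for members were not examined for the list genes. Among 23 measured genes of sugar nucleotide supply and transport, 3 were higher in MyLa with IL-32γ by 1.5-fold or more (13.0%) and 1 was lower (4.35%), and in HH none passed. The higher ones were GFUS, at 10.72 with IL-32γ, against 9.90 in the control (0.83), and the transporters SLC35D1 (0.73) and SLC35B4 (0.66). GFUS finishes the GDP-fucose synthesis that GMDS begins, and GMDS was higher in the same line by 0.85, while in HH GFUS differed by -0.16. The lower one was MPI, which supplies mannose 6-phosphate (-1.15). FCSK, the kinase that salvages fucose, differed by -0.56 in MyLa and -0.51 in HH. SLC35C1, the importer of GDP-fucose, differed by -0.43 in MyLa and -0.53 in HH.

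Between the lines 4 of the 23 supply genes (17.4%, against 18.7% of all genes) were higher in MyLa, with GALK2 (3.26, SE 0.10), SLC35C1 and GFPT1, the entry enzyme of hexosamine synthesis (2.14, SE 0.10), highest, and 1 (4.35%, against 16.8%), GALK1, was lower. Of 6 measured scaffolds SPN was lower in MyLa with IL-32γ (-0.64), in a probe set that can match several transcripts. No scaffold was higher there, and PODXL was higher in HH (1.19). PODXL was also the 1 scaffold that passed between the lines, 11-fold higher in MyLa. In the list of sialidases, fucosidases and sulfotransferases, CHST2, a GlcNAc sulfotransferase, was lower with IL-32γ by -0.65 in MyLa and by -0.79 in HH. The sialidase NEU3 was lower in MyLa (-0.74), and CHST10, below 3 in MyLa, was lower in HH (-0.69). NEU1 and HEXA were higher in MyLa than in HH, and CHST10 and FUCA1 lower.

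Of core and other glycan enzymes, 27 were measured in each line. C1GALT1 (-0.81) and the glucosidase gene MOGS (-0.59) were lower with IL-32γ in MyLa, RFNG was lower in HH (-0.76), and none was higher in either line. Between the lines 6 of 28 were higher in MyLa (21.4%, against 18.7% of all genes) and 4 lower (14.3%, against 16.8%). XYLT1, which starts proteoglycan chains, was at 9.60 and 10.15 in MyLa (IL-32γ, control), against 2.17 and 2.16 in HH, at least 29.3-fold higher in MyLa (4.87, SE 0.22, adjusted p = 0.000443 in limma). The probe set standing for XYLT1 can match several transcripts. CHSY3, a chondroitin synthase, was at 2.13 on both MyLa arrays, against 8.04 and 8.49 in HH, at least 9.59-fold lower in MyLa. UGCG, which makes the glucosylceramide from which gangliosides are built, was higher in MyLa by 1.91 (SE 0.13, adjusted p = 0.00117 in limma).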

How the data were processed

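Gene expression was read from 4 arrays, 1 each of MyLa with IL-32γ, MyLa control, HH with IL-32γ and HH control. The authors deposited log2 expression values per probe set made with GCRMA, per the submitters' processing notes. GCRMA models background from probe sequence before normalising and summarising, which compresses low values. The sources used here give neither its version nor whether all arrays went through it together, and the log2 scale was read from the values.

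Symbols came from the array annotation, updated through Entrez identifiers with RefSeq (41043 of 41097 probe sets with 1 symbol matched, while 1801 with several and 11777 not listed were not named). Values below 5 were set to 5. Within a line, genes reaching 5 on either array were counted at 1.5-fold. MyLa against HH was tested with limma 3.58.1 in R 4.3.3 on genes reaching 5 on 2 or more arrays, without a block and with 2 residual degrees of freedom. IL-32γ was tested across lines with the line as a block and 1 residual degree of freedom. Tests were two-sided, with Benjamini-Hochberg adjustment over all 11010 genes. A fold against a line below 5 on both arrays is a bound. The number of arrays limits precision.

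The alternatives tried were another floor (4, 6 or none), quantile normalisation, median centring, averaging all probe sets per gene, dropping probe sets that end in _s_at or _x_at, other thresholds, a treatment block, no line block, an intensity trend and leaving out each array. Counts of genes read in 1 line, and of opposite responses, were added after seeing the data. The members and lists were chosen with earlier results of these data known. Named genes were those of the E-selectin route, the 8 highest and 8 lowest members per line, the 10 largest calls each way between lines, members passing in both lines or opposite ways, and up to 5 per other list. Other members are named to complete a role, a choice made once their values were known. Some listed pathway and marker genes were not analysed here. Tables and plots used Python 3.11.15, pandas 2.3.3, numpy 2.4.6 and matplotlib 3.10.9.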

Additional observations from a re-analysis of the deposited data

Results flagged for a closer look

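In 4 genes the 2 lines moved past 1.5-fold in opposite directions with IL-32γ, 1 array a condition, and the difference between the lines was not tested. The MyLa response minus the HH response was 1.47 (log2) for GMDS, 1.33 for B4GALT2, 1.32 for CHPF2 and -1.85 for B3GNT5. In MyLa B3GNT5 is a bound, since its IL-32γ array was below 5, and its second probe set was below 5 on both MyLa arrays. The second probe sets of CHPF2 had the same signs as the first, 1.10 in MyLa and -0.45 in HH, as had those of GMDS, at least 0.24 and -0.05. B4GALT2 had 1 measured probe set. On the same arrays the probe set near the 5' end of ACTB was higher with IL-32γ in both lines. That near its 3' end differed by -0.08 in MyLa and -0.03 in HH. The part of this 5' difference was not tested.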

How the results depend on the processing

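With 1 array a condition, differences within a line have no error, and values near 5 are limited by background. In MyLa the 13 member genes past 1.5-fold became 6 as means of probe sets (2 of them lower) and 3 at 2-fold (0 higher, 3 lower), and with a floor of 6 only 2 were higher. In HH the 6 became 3 as means of probe sets (2 lower) and 2 at 2-fold (0 higher, 2 lower), and with a floor of 6 there were 3 lower. The 4 genes moving in opposite directions became 2 with a floor of 6, as means of probe sets, or without _s_at and _x_at probe sets. ST3GAL2 in MyLa changed sign in that last setting, to 0.25, because another probe set then stands for it. Between the lines, leaving out single arrays gave 12 to 20 calls, against 23, of which 7 to 12 were higher in MyLa and 5 to 8 lower in MyLa. Of the 23, 12 to 18 were called again. The other alternatives gave 18 to 33 calls, and 16 were lower in MyLa with no fold minimum. Genes read in HH alone were 5 with a floor of 4 and 7 as means of probe sets, against 3. Except where fewer arrays, a higher threshold or another probe set enter by construction, the cause was not tested. No member passed an adjusted p in limma for IL-32γ across lines under any alternative that was fitted.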
